A study of Homo sapiens with 24 samples.

Results

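This account follows 39 genes of the amino acid response and the unfolded protein response, out of 35993 genes counted, through 24 RNA-sequencing libraries of bladder cancer cells. The 39 were chosen by gene symbol, as targets and partners of the transcription factor ATF4 or as chaperones, sensors and degradation factors of the endoplasmic reticulum (ER), and all 39 had a line in the table of counts. Measured values played no part in that rule, although the set was put together with earlier results of these libraries known. J82 and RT-112 are established cell lines from human urothelial carcinomas of the bladder. Each gave 4 groups of 3 biological replicates: parental cells, and newly made lines, CD44 Low, CD44 High and CD44v6, named for a low level of the surface receptor CD44, a high level of it, or a high level of its v6 splice variant. The labels name no drug, no stress treatment and no genetic change for any group, and do not say how the CD44 lines were derived or whether each is 1 clone, so the CD44 level and other differences between isolates cannot be told apart.

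Cells that run short of an amino acid, or whose ER fills with unfolded protein, activate kinases that phosphorylate the translation factor eIF2. General protein synthesis then falls while ATF4 is made, and ATF4 induces genes for making, importing and charging amino acids; this is the integrated stress response (ISR). In the unfolded protein response (UPR) the sensors ERN1 (IRE1), ATF6 and EIF2AK3 (PERK) are held inactive by the chaperone HSPA5 (BiP) and, once released, raise chaperones, disulfide isomerases and the machinery of ER-associated degradation. Much of this control acts on translation, splicing and cleavage of proteins, which a count per gene does not show: the counts cannot tell spliced from unspliced XBP1, or made from unmade ATF4 protein.

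Libraries held 16752825 to 24419670 counts. Levels are given as CPM, read counts normalised to the size of the library, with libraries scaled by trimmed mean of M-values (TMM), and fold changes on the log2 scale with their standard error (SE) from edgeR's quasi-likelihood test. A gene was called at a Benjamini-Hochberg adjusted p under 0.05 over all genes tested. CD44 itself averaged 445, 279, 727 and 800 CPM in parental, CD44 Low, CD44 High and CD44v6 cells of J82, and 317, 141, 420 and 448 CPM in RT-112. It was called in CD44 High against CD44 Low in both lines, and against parental cells in CD44 Low of both lines but in CD44 High and CD44v6 of J82 alone (adjusted p = 0.272 and 0.163 in RT-112); whether those increases differ between the lines was tested for CD44v6 and was not called (0.35, adjusted p = 0.525). The J82 calls of CD44 against parental cells were lost in all 6 fits without 1 library for CD44 Low (adjusted p up to 0.131) and for CD44 High (up to 0.177). For CD44v6 the call was lost without parental replicate 1, 2 or 3 (up to 0.121) and in the fit of only the 2 groups (0.0866). The calls of CD44 against CD44 Low, and of RT-112 CD44 Low against parental cells, were kept in every such fit. Of 15 urothelial and epithelial markers, UPK3A was at 0 in all 24 libraries. KRT5 and UPK2 were at 0 throughout J82, where GATA3, TP63, UPK1A and UPK1B were near 0. CDH1, EPCAM and FOXA1 were at 6.47 CPM or less in J82 and at 81.4 CPM or more in RT-112. PPARG ran from 19.8 to 53.6 CPM in J82 and from 161 to 228 CPM in RT-112. Keratins KRT7, KRT8, KRT18 and KRT19 were expressed in both lines. Of the mesenchymal markers, VIM, CDH2 and ZEB1 were at 45.8 CPM or more in J82 and at 8.04 CPM or less in RT-112. FN1 overlapped between the lines and SPARC was at 6.21 CPM or less. Of the leukocyte markers PTPRC and CD3E were at 0.162 CPM or less and CD14 at 1.67 CPM or less, while CD68 ran from 76.9 to 216 CPM in J82 and from 6.94 to 13.7 CPM in RT-112. The endothelial markers PECAM1, CDH5, VWF and KDR were each at 3.92 CPM or less. Replicate 2 of J82 CD44v6 stood apart from its group: between it and replicate 3 the chi-square per degree of freedom was 63.7, the highest of 24 replicate pairs.

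Promoter sequences of 6 members are shown first, because they carry the elements through which the UPR is known to act, and the members that hold them did not all move the same way in the CD44 lines. RefSeq promoters (assembly GRCh38.p14, 250 bases before to 50 after each start) were found for 36 of the 39 members. The ER stress element, bound by ATF6 and XBP1, was searched on both strands as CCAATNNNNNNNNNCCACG, its compact form ERSE-II as ATTGGNCCACG, the core of the XBP1-bound UPR element as TGACGTG, and the ATF4-bound C/EBP-ATF response element as TGATGNAA. ERSE was found in 6 members (XBP1, HSPA5, HSP90B1, CALR, PDIA6 and CRELD2), 5 of them among the 11 chaperones and folding factors, and in 0.0916% of 27305 genes in all. ERSE-II was found in HYOU1 (at 2 places), SDF2L1 and HERPUD1, against 0.0696% of all genes. The ATF4 element was found in CHAC1, CEBPG, ASNS, AARS1, GARS1 and HERPUD1, against 4.46% of all genes, and the UPR element core in ALDH18A1 and HYOU1, against 2.4%; in HYOU1 it overlaps an ERSE-II. The 250 bases before the start are printed 5′ to 3′ in the direction of the gene, with the fixed letters of each match in capitals: HSPA5 at chr9:125241344-125241593 on the minus strand, PDIA6 at chr2:10812786-10813035 on the minus strand, CRELD2 at chr22:49918384-49918633 on the plus strand, HYOU1 at chr11:119057206-119057455 on the minus strand, SDF2L1 at chr22:21642052-21642301 on the plus strand and HERPUD1 at chr16:56931892-56932141 on the plus strand.
HSPA5: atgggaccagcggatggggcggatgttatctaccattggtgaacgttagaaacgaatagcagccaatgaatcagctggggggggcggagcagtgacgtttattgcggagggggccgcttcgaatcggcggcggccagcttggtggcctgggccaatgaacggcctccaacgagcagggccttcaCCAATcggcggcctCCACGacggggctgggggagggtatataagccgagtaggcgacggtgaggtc
PDIA6: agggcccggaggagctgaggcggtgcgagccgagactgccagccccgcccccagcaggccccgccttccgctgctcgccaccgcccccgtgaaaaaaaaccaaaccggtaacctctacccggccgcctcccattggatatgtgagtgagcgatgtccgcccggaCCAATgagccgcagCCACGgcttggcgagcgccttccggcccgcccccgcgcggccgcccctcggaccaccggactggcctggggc
CRELD2: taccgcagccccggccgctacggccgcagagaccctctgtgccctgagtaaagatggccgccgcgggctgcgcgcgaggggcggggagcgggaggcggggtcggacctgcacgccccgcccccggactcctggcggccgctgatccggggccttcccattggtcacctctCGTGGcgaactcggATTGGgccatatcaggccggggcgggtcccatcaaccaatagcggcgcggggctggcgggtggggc
HYOU1: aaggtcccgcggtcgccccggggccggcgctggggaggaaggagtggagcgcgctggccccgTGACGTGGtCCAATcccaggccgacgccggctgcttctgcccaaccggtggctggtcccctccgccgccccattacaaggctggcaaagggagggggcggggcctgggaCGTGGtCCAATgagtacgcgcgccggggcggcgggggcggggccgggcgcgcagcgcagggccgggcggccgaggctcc
SDF2L1: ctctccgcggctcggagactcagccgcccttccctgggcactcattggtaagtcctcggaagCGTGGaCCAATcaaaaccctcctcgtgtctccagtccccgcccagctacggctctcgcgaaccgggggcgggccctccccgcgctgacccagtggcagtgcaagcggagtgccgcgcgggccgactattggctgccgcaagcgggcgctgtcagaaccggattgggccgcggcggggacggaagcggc
HERPUD1: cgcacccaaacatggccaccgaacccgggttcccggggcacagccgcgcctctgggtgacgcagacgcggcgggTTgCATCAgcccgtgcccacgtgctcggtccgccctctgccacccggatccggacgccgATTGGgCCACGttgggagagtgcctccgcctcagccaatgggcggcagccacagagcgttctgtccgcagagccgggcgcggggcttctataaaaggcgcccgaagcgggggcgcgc
HSPA5 and PDIA6 carry ERSE in the forward direction and CRELD2 in reverse, each within 90 bases of the start. The matching bases of 2 further members are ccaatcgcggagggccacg in XBP1 and cgtggtcgaccatcattgg in CALR, the latter on the reverse strand. A match is a description of letters in this window and not a measured binding site.

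The parental cells of the lines already differed in 25 of the 39 members, 12 higher in J82 and 13 higher in RT-112. This share is close to that of all 17438 genes tested between the lines, of which 62% were called. The median log2 fold change of the members was 0.04 and that of all genes 0.00. PSAT1, the transaminase of serine synthesis, stood at 104, 89.8 and 91.9 CPM in parental J82 and 6.01, 8.45 and 5.90 CPM in parental RT-112 (log2 fold change 3.80, SE 0.17, adjusted p = 3.12e-14). PHGDH and PSPH, the enzymes before and after it in the same pathway, were lower in J82, at -0.62 (adjusted p = 0.000107) and -0.39 (adjusted p = 0.00442); PSPH was not called without J82 parental replicate 3 (adjusted p = 0.0596). A single enzyme of the pathway was far higher in J82 and its neighbours slightly lower. DDIT3 (CHOP), a transcription factor tied to stress-induced death, was 8.06 times as high in J82 (3.01, SE 0.22, adjusted p = 6.94e-11), and VLDLR, a lipoprotein receptor, 8.62 times as high (3.11, SE 0.24, adjusted p = 2.18e-10). ATF4 itself was lower in J82 at -0.48 (adjusted p = 5.46e-05), and so were SESN2, a leucine-binding inhibitor of mTORC1 signalling, at -1.18 (adjusted p = 6.89e-05) and the amino acid transporter SLC7A5 at -0.83 (adjusted p = 0.000368). AARS1 and WARS1, which charge tRNA with alanine and tryptophan, were higher in J82 by 1.32 and 0.70. In the ER, HSPA5 (0.94), the co-chaperone DNAJB9 (1.12), MANF (0.83) and the degradation factor HERPUD1 (0.92) were higher in J82. EDEM1, a lectin that hands misfolded glycoproteins to degradation, was lower at -1.52, as were CRELD2 (-0.78), HYOU1 (-0.55), PDIA6 (-0.49) and XBP1 (-0.43). For each of the genes named here the 3 libraries of one line did not overlap those of the other. Leaving out any 1 of the 6 parental libraries left 23 or 24 members called.

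**Figure D1:**
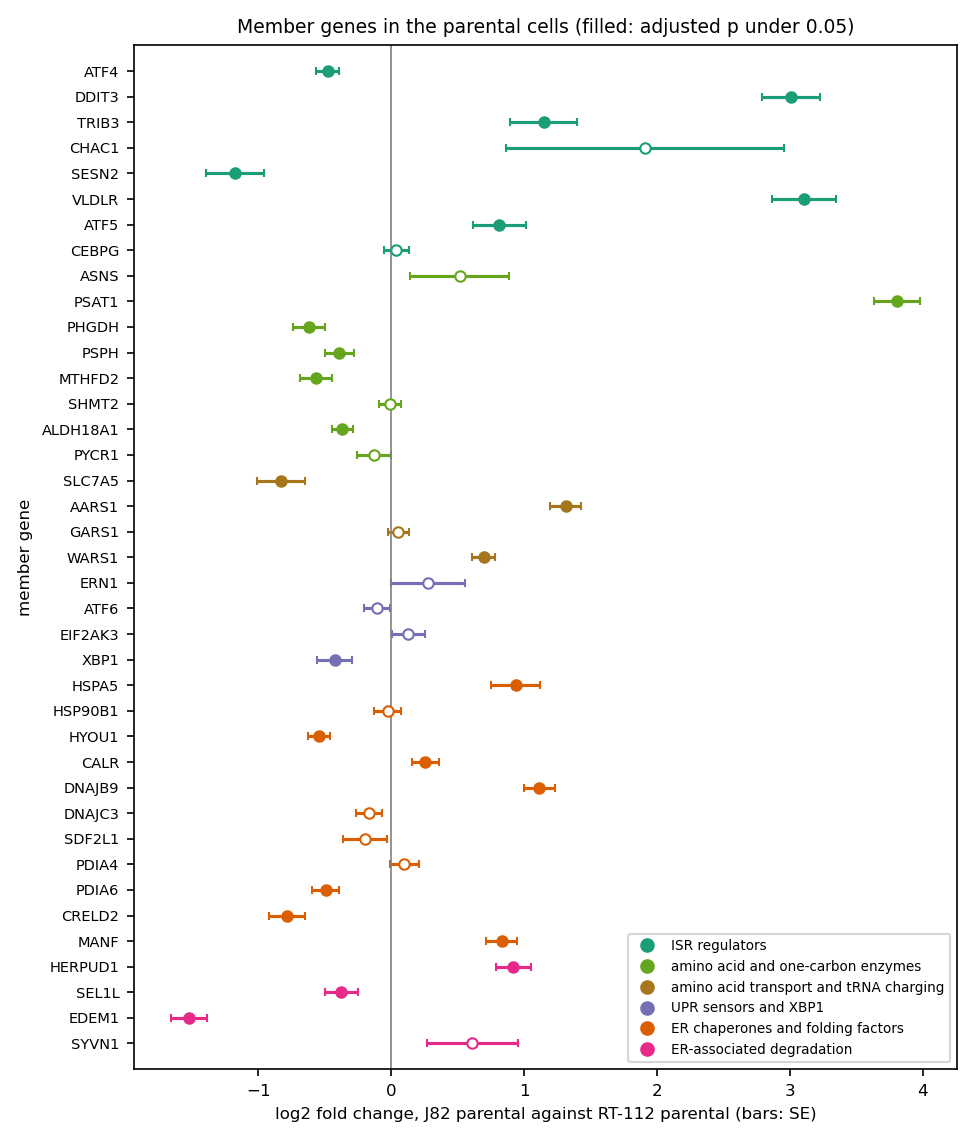
Log2 fold change of each of the 39 members in J82 parental against RT-112 parental cells (points; bars are SE, n = 3 per line; filled points have an adjusted p under 0.05; colours mark roles). PSAT1, VLDLR and DDIT3 lie beyond 3, EDEM1 lies lowest at -1.52, and XBP1 lies at -0.43.

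Per kilobase of exon (GENCODE 29 exon unions), CALR and HSP90B1, a calcium-binding lectin chaperone and an ER form of HSP90, were the most abundant members in both lines, at median levels of 849 and 515 CPM per kb in J82 and 761 and 504 in RT-112. HSPA5 followed at 169 CPM per kb in J82, and PDIA4 at 164. In RT-112 PDIA4 stood at 158 and HSPA5 at 64.8 CPM per kb. At the low end lay CHAC1, a glutathione-degrading enzyme, at 0.322 and 0.1 CPM per kb, with 0 to 27 counts per library. CHAC1 did not pass the filter on low counts in RT-112, so 38 members were tested there and 39 in J82. Exons of 13 members overlap another gene of the table in GENCODE 29, most of all MTHFD2 (27.2% of its exon bases, by SLC4A5), PDIA6 (25.2%, by ATP6V1C2) and ATF5 (21.2%). Whether counting used strand is not given in the sources used here, so counts of these members could include reads of the neighbour. Counts of HSPA5, HSP90B1, PSAT1 and PSPH, which have processed pseudogenes or near copies elsewhere in the genome, are uncertain to the extent that counting could split reads between copies.

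Within the lines, 19 members were called in at least 1 of the 12 comparisons and 20 in none: 13 were called in J82 alone, 2 in RT-112 alone and 4 in both. The 19 are 48.7% of the members, where 31.9% of the 17359 genes tested in either line were called at least once. The split by line was 33.3%, 5.13% and 10.3% of the members and 12.5%, 14.1% and 5.31% of all genes. A call in 1 line alone does not show that the lines differ. In J82 CD44 Low against parental cells 7 of 39 members (17.9%) rose and none fell, where 5.34% of all 15951 genes were called, 2.26% higher and 3.08% lower. The median change of the members was 0.07 against 0.00 for all genes. In J82 CD44 High 2 members rose against parental cells (background 2.94%, 1.71% higher and 1.23% lower) and in CD44v6 1 rose (2.6%, 1.86% higher and 0.74% lower). CD44 High against CD44 Low gave 9 higher and 2 lower, 28.2% of the members (15.7% of all genes called, 8.83% higher and 6.9% lower), and CD44v6 against CD44 Low gave 3 higher and 1 lower (9.58%, 6.18% higher and 3.4% lower). The member medians in these 2 comparisons were 0.06 and -0.03, and those of all genes -0.02 and -0.01. In bulk RNA, fewer cells of a type and less RNA per cell cannot be told apart, here or in any result that follows.

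The counts of members called against J82 parental cells changed when 1 library was left out, and so did those of all genes. All-gene counts were 312 to 965 for CD44 Low (852 in the full fit), 122 to 349 for CD44 High (469) and 32 to 1120 for CD44v6 (415). Against CD44 Low they were 1578 to 2278 for CD44 High (2508) and 1024 to 1695 for CD44v6 (1528). In CD44 Low, 1 member was called without parental replicate 1, 2 or 3, 2 without CD44 Low replicate 2 and 4 without CD44 Low replicate 1. In CD44 High, none was called without parental replicate 1, 2 or 3 or CD44 High replicate 2, and 1 without CD44 High replicate 1 or 3. In CD44v6, none was called without any 1 of the parental libraries or without CD44v6 replicate 2, and 2 and 3 were called without CD44v6 replicates 1 and 3. The comparison of CD44 High with CD44 Low gave 6 calls without CD44 Low replicate 1 or CD44 High replicate 2, 7 without CD44 Low replicate 2 and 8 or 9 otherwise. That of CD44v6 with CD44 Low gave 9 calls without CD44v6 replicate 2, 1 without CD44v6 replicate 1, and none without CD44v6 replicate 3 or CD44 Low replicate 1 or 2. CD44v6 against CD44 High called no gene at all in J82 with edgeR (1536 genes and 2 members at an unadjusted p under 0.05; 74 genes and no member with DESeq2).

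**Figure D2:**
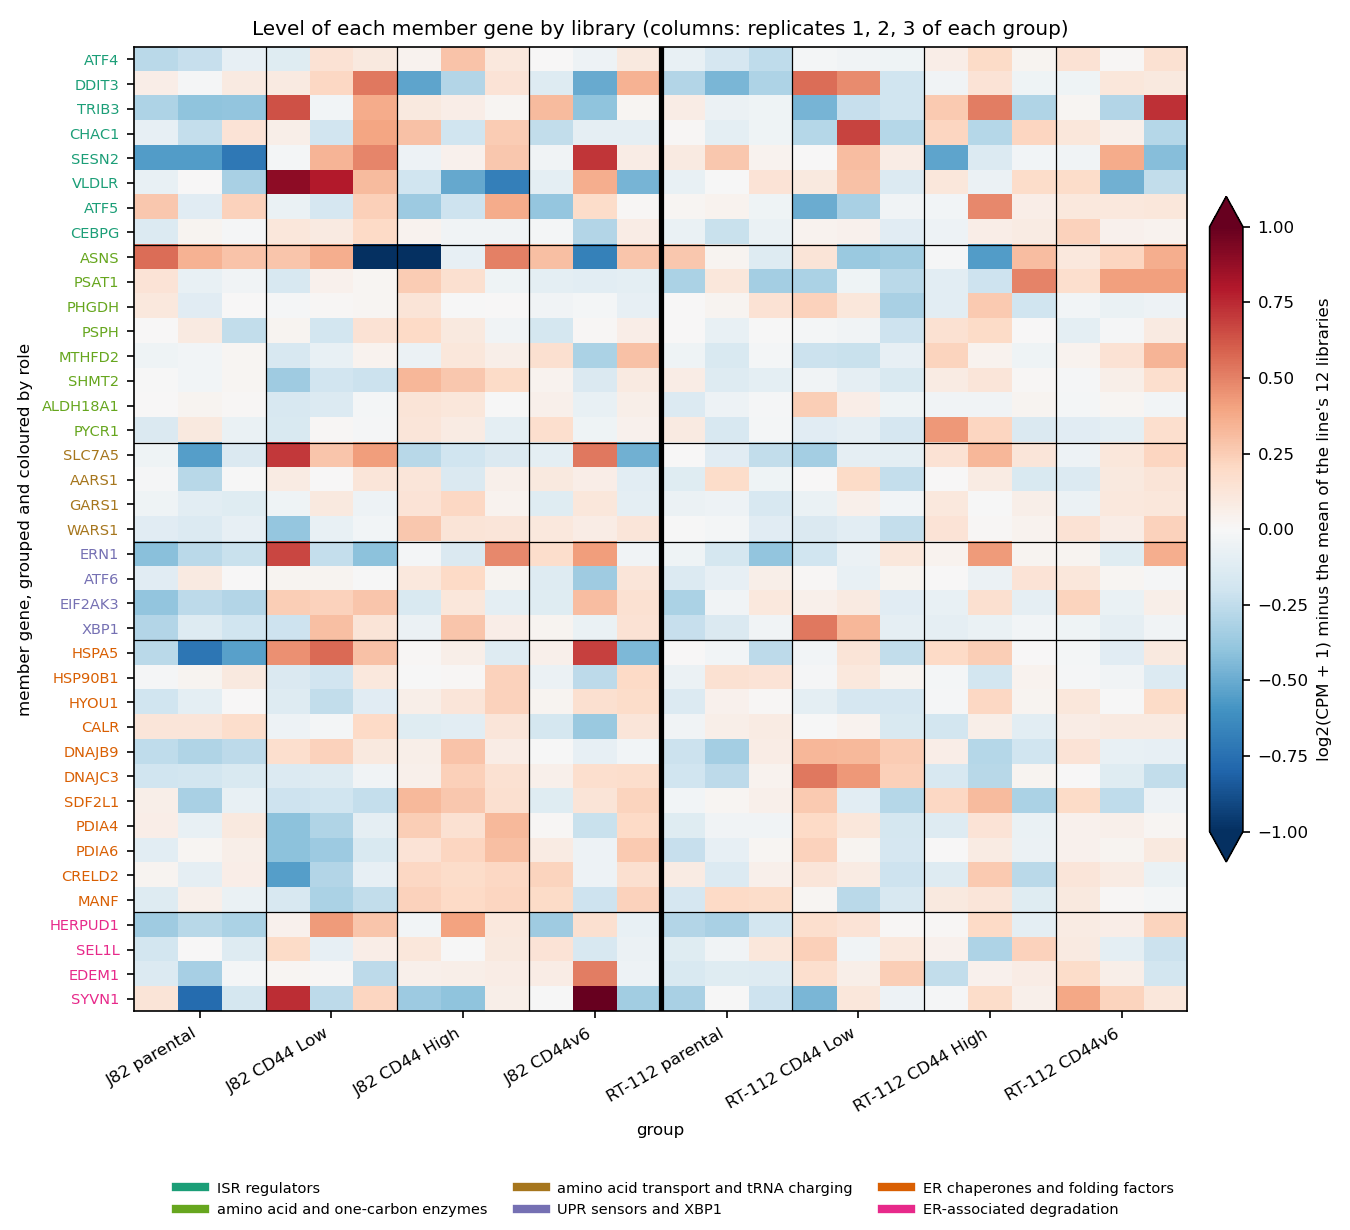
Level of each member (rows, grouped and coloured by role) in each of the 24 libraries (columns, replicates 1 to 3 of each group), as log2(CPM + 1) minus the mean of the 12 libraries of its line, on a scale from -1 to 1. Parental J82 is blue for SESN2, HSPA5, EIF2AK3, DNAJB9 and HERPUD1, J82 CD44 Low is blue for PDIA4, PDIA6, CRELD2 and SHMT2, and replicate 2 of J82 CD44v6 differs from its neighbours in HSPA5, SLC7A5, ASNS and SYVN1.

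Among the 8 regulators and targets of the ISR, SESN2, TRIB3 and VLDLR rose in J82 CD44 Low (37.5%, against 5.34% of all genes called). ATF4 and DDIT3 were called by edgeR in none of the 12 comparisons within a line. ATF4 stood at 187, 192 and 213 CPM in parental cells, 208, 249.9 and 241 CPM in CD44 Low, 231, 276 and 242 CPM in CD44 High and 226, 218 and 241 CPM in CD44v6 of J82. All CD44-line libraries but replicate 1 of CD44 Low, at 208 CPM, lay above the highest parental library. The largest change, in CD44 High, was 0.34, SE 0.10, adjusted p = 0.0904, short of the threshold; it was called with DESeq2 (adjusted p = 0.0217) and in the fit of only the 2 groups (0.0351). RT-112 cells held ATF4 at 293, 274 and 258 CPM in parental cells, 305, 301 and 299 CPM in CD44 Low, 322, 352 and 313 CPM in CD44 High and 341, 311 and 343 CPM in CD44v6, with changes against parental cells of 0.10 in CD44 Low, 0.26 in CD44 High and 0.23 in CD44v6, none called. DDIT3 stood at 69, 65.3 and 70.3 CPM in parental cells, 70.4, 76.2 and 95.6 CPM in CD44 Low, 45.6, 53.6 and 72.5 CPM in CD44 High and 60.2, 46.2 and 84.1 CPM in CD44v6 of J82, with CD44 High and CD44v6 libraries on both sides of the parental ones. Set against CD44 Low, its change in CD44 High, -0.49 (adjusted p = 0.125), was not called, though it was under a replicate block (0.0321). RT-112 cells held DDIT3 at 8.85, 7.81 and 8.73 CPM in parental cells, 16.8, 15.8 and 9.49 CPM in CD44 Low, 10.8, 12.3 and 10.7 CPM in CD44 High and 10.7, 12 and 11.9 CPM in CD44v6. Replicates 1 and 2 of CD44 Low were above every other RT-112 library and replicate 3 lay between the parental and CD44 High libraries, and the change (0.69, SE 0.18, adjusted p = 0.0529) was not called, while DESeq2 called it (adjusted p = 0.0107).

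SESN2, which restrains mTORC1 when leucine is scarce, stood at 8.01, 8.0 and 7.07 CPM in parental cells, 12.1, 15.8 and 17.6 CPM in CD44 Low, 11.8, 12.6 and 14.9 CPM in CD44 High and 11.9, 20.7 and 12.9 CPM in CD44v6 of J82. The 3 parental libraries were the lowest of the 12. The change against parental cells was 0.97, SE 0.21, adjusted p = 0.0169 in CD44 Low and 0.98, SE 0.21, adjusted p = 0.0307 in CD44v6. In CD44 High it was 0.77 (adjusted p = 0.0695). The CD44 Low call was lost without parental replicate 1 or 2 or 3 or CD44 Low replicate 2 or 3 (adjusted p = 0.051 to 0.0822). The CD44v6 call was lost without parental replicate 1 or 2 or 3 or CD44v6 replicate 2 (adjusted p = 0.0786 to 0.132); it was also lost in the fit of only the 2 groups (adjusted p = 0.0819). The CD44v6 change was 0.69 without replicate 2 of CD44v6. RT-112 cells held SESN2 at 16.8, 19.2 and 16.2 CPM in parental cells, 15.8, 19.7 and 16.6 CPM in CD44 Low, 10.6, 14.2 and 15.4 CPM in CD44 High and 15.4, 20.7 and 11.5 CPM in CD44v6, with CD44 High below parental cells and CD44 Low without overlap, by uncalled amounts; CD44 High against CD44 Low gave -0.34 (adjusted p = 0.257). The difference between the lines in the change of CD44 Low against parental cells, 0.98, was not called (adjusted p = 0.134). TRIB3, a pseudokinase that feeds back on ATF4, rose in J82 CD44 Low from 12.9 ± 0.534 CPM to 21.9 ± 5.17 CPM (SD, n = 3; 0.76, SE 0.19, adjusted p = 0.0386). It was not called without parental replicate 1 or 2 or 3 or CD44 Low replicate 1 or 3 (adjusted p = 0.07 to 0.166); it was also lost with no filter (adjusted p = 0.0561).

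VLDLR, the lipoprotein receptor, gave the largest change of a member within a line. It stood at 26.7, 28.2 and 22.3 CPM in parental cells, 53.2, 49.4 and 35.2 CPM in CD44 Low, 24.4, 19.4 and 17.1 CPM in CD44 High and 26.2, 36.5 and 20.1 CPM in CD44v6 of J82. CD44 Low lay above parental and CD44 High cells without overlap, while CD44v6 replicate 2 reached into the range of CD44 Low. VLDLR rose in CD44 Low against parental cells by 0.83, SE 0.21, adjusted p = 0.039, and was lower in CD44 High than CD44 Low at -1.17, SE 0.21, adjusted p = 0.00252. CD44v6 was also lower than CD44 Low (-0.73, SE 0.21, adjusted p = 0.0461). The call of CD44 Low against parental cells was lost without parental replicate 1 or 2 or 3 or CD44 Low replicate 1 or 2 (adjusted p = 0.103 to 0.16); it was also lost with no filter (adjusted p = 0.056). That of CD44 High against CD44 Low was kept in all 6 fits without 1 library. That of CD44v6 against CD44 Low was lost without CD44 Low replicate 1 or 2 or CD44v6 replicate 1 or 3 (adjusted p = 0.132 to 0.164); it was also lost with no filter (adjusted p = 0.0672) and in the fit of only the 2 groups (adjusted p = 0.148). RT-112 cells held VLDLR at 2.72, 2.89 and 3.30 CPM in parental cells, 3.17, 3.78 and 2.55 CPM in CD44 Low, 3.23, 2.76 and 3.44 CPM in CD44 High and 3.44, 1.80 and 2.30 CPM in CD44v6, with every group overlapping. ATF5, a bZIP transcription factor induced by the ISR, was higher in RT-112 CD44 High (12 ± 2.53 CPM) than in CD44 Low (8.47 ± 1.53 CPM; 0.54, SE 0.16, adjusted p = 0.0375), and without replicate 2 of CD44 High the change was 0.36. The call was lost without CD44 Low replicate 1 or 2 or CD44 High replicate 1 or 2 (adjusted p = 0.0517 to 0.157); it was also lost with no filter (adjusted p = 0.0818), under a replicate block (adjusted p = 0.0558) and in the fit of only the 2 groups (adjusted p = 0.152). CEBPG, the partner of ATF4 in binding its targets, ran from 48.5 to 71.8 CPM over all 24 libraries, and CHAC1 from 0 to 1.32 CPM; neither was called in any comparison within a line.

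Of the 8 enzymes of amino acid and one-carbon metabolism 2 were called within a line, SHMT2 in J82 and MTHFD2 in RT-112. Of all genes tested, 31.9% were called at least once. SHMT2, the mitochondrial enzyme that splits serine into glycine and a one-carbon unit, stood at 134, 133 and 137 CPM in parental cells, 106, 118 and 116 CPM in CD44 Low, 170.4, 163 and 154 CPM in CD44 High and 138, 122 and 144 CPM in CD44v6 of J82. CD44 Low was below every other J82 library and CD44 High above them. The change in CD44 High against CD44 Low was 0.53, SE 0.09, adjusted p = 0.0012. The call was kept in all 6 fits without 1 library. RT-112 cells held SHMT2 at 148, 128 and 131 CPM in parental cells, 137, 132 and 126 CPM in CD44 Low, 148, 153 and 142 CPM in CD44 High and 139, 147 and 158 CPM in CD44v6, with a change of 0.20 (adjusted p = 0.121) in the same comparison; the difference between the lines, 0.35, had an adjusted p of 0.0505. MTHFD2, which follows SHMT2 in the mitochondrial folate pathway, was higher in RT-112 CD44v6 (103 ± 11.3 CPM) than in CD44 Low (81 ± 4.41 CPM; 0.34, SE 0.10, adjusted p = 0.0405). It was not called without CD44 Low replicate 1 or 2 or CD44v6 replicate 2 or 3 (adjusted p = 0.0769 to 0.157); it was also lost with no filter (adjusted p = 0.0616) and under a replicate block (adjusted p = 0.0543). PHGDH, PSPH, ALDH18A1 and PYCR1, which make serine and proline precursors, were called in no comparison within a line, and their largest change was 0.35 (PYCR1, RT-112 CD44 High against CD44 Low; adjusted p = 0.106). ASNS, asparagine synthetase, a classical ATF4 target, varied widely between replicates: J82 held it at 19.2, 16.5 and 15.8 CPM in parental cells, 15.7, 16.6 and 5.61 CPM in CD44 Low, 5.34, 12 and 18.5 CPM in CD44 High and 16, 7.62 and 15.6 CPM in CD44v6. Single libraries at 5.34 to 7.62 CPM, 1 in each of the J82 CD44 groups, lay under 9 others at 12 to 19.2 CPM, and the SE of its J82 changes was 0.43 to 0.44. PSAT1, so far apart between the lines, stayed between 84.2 and 113 CPM in J82 and between 5.90 and 11.3 CPM in RT-112. Its RT-112 mean was 6.57 CPM in CD44 Low and 10 CPM in CD44v6. By edgeR it was called in no comparison within a line (smallest adjusted p = 0.0811).

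Among the 4 genes of transport and tRNA charging, SLC7A5 and WARS1 were called at least once within a line, as were 31.9% of all genes tested. SLC7A5, the light chain of the LAT1 importer of leucine and other large neutral amino acids, stood at 129, 90.4 and 120.2 CPM in parental cells, 217, 161 and 178 CPM in CD44 Low, 109, 116 and 120.1 CPM in CD44 High and 124, 191 and 94.6 CPM in CD44v6 of J82. All CD44 Low libraries were above all parental and CD44 High ones, while CD44v6 replicate 2 was as high as CD44 Low. SLC7A5 was lower in CD44 High than CD44 Low at -0.69, SE 0.21, adjusted p = 0.0444. The call was lost in all 6 fits without 1 library (adjusted p = 0.053 to 0.17); it was also lost with no filter (adjusted p = 0.0632) and under a replicate block (adjusted p = 0.0566). Its change in CD44 Low against parental cells, 0.71 (adjusted p = 0.0734), was not called. RT-112 cells held SLC7A5 at 218, 202 and 184 CPM in parental cells, 172, 206 and 204 CPM in CD44 Low, 241, 276 and 238 CPM in CD44 High and 211, 237 and 254 CPM in CD44v6. There CD44 High was above CD44 Low without overlap (0.41, SE 0.10, adjusted p = 0.0194), the opposite direction to J82. Leaving out CD44 Low replicate 1 or CD44 High replicate 1 or 2 ended the call (adjusted p = 0.0596 to 0.0856); it was also lost in the fit of only the 2 groups (adjusted p = 0.0656). WARS1, tryptophanyl-tRNA synthetase, stood at 114, 111.6 and 116 CPM in parental cells, 93.7, 117 and 121 CPM in CD44 Low, 149, 135 and 134 CPM in CD44 High and 133, 129 and 134 CPM in CD44v6 of J82. CD44 High was higher than CD44 Low by 0.34, SE 0.10, adjusted p = 0.0302, and replicate 1 of CD44 Low was the lowest library. Without CD44 Low replicate 1 or CD44 High replicate 1 or 2 it was no longer called (adjusted p = 0.0621 to 0.114); it was also lost in the fit of only the 2 groups (adjusted p = 0.0742). RT-112 cells held WARS1 at 72.1, 71.4 and 66.6 CPM in parental cells, 65.3, 66.9 and 61 CPM in CD44 Low, 79.7, 72.6 and 73.9 CPM in CD44 High and 79.7, 75.9 and 84.7 CPM in CD44v6. The 3 CD44 Low libraries were below those of CD44 High (0.26, SE 0.08, adjusted p = 0.0481) and of CD44v6 (0.31, SE 0.08, adjusted p = 0.0259). The first call was lost without CD44 Low replicate 1 or 2 or 3 or CD44 High replicate 1 or 3 (adjusted p = 0.0613 to 0.191); it was also lost with RLE size factors (adjusted p = 0.0587), with no filter (adjusted p = 0.136), under a replicate block (adjusted p = 0.0744) and in the fit of only the 2 groups (adjusted p = 0.152). The second was lost without CD44 Low replicate 1 or 2 or 3 or CD44v6 replicate 1 or 3 (adjusted p = 0.0532 to 0.0947); it was also lost with no filter (adjusted p = 0.0509). AARS1 and GARS1, the synthetases for alanine and glycine, were called in no comparison within a line.

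Of the UPR sensors and XBP1, EIF2AK3 rose in J82 CD44 Low (25% of the 4, against 5.34% of all genes called). ERN1, ATF6 and XBP1 were called by edgeR in none of the comparisons within a line. EIF2AK3 (PERK), the ER kinase for eIF2, stood at 42.4, 46.5 and 45.4 CPM in parental cells, 66.5, 65.6 and 67.9 CPM in CD44 Low, 50.3, 60.6 and 52.2 CPM in CD44 High and 51.3, 69.6 and 62.5 CPM in CD44v6 of J82. The parental libraries were the lowest 3 of the 12 and CD44 Low varied least. The change in CD44 Low was 0.57, SE 0.11, adjusted p = 0.0101. Leaving out parental replicate 1 ended the call (adjusted p = 0.0609). In CD44v6 it was 0.45 (adjusted p = 0.0503). RT-112 cells held EIF2AK3 at 34.3, 41.9 and 46.4 CPM in parental cells, 44.5, 45.8 and 39.6 CPM in CD44 Low, 40.6, 48.1 and 40.2 CPM in CD44 High and 50.3, 41 and 44.8 CPM in CD44v6, all groups overlapping. XBP1, the factor whose mRNA ERN1 splices, stood at 82.2, 92.3 and 87.8 CPM in parental cells, 87.4, 125 and 111 CPM in CD44 Low, 96.8, 123 and 106 CPM in CD44 High and 103, 96.3 and 111 CPM in CD44v6 of J82. Its changes against parental cells were 0.30 (adjusted p = 0.193) in CD44 Low, 0.31 (adjusted p = 0.242) in CD44 High and 0.25 (adjusted p = 0.306) in CD44v6, none called. RT-112 cells held XBP1 at 109.7, 117 and 126 CPM in parental cells, 186, 162 and 122 CPM in CD44 Low, 121, 123 and 127 CPM in CD44 High and 126, 121 and 126 CPM in CD44v6. Replicates 1 and 2 of CD44 Low were the highest of the line and replicate 3 lay with the other groups, for a change of 0.38 (adjusted p = 0.104); DESeq2 called it (adjusted p = 0.0376), and also the lower level in CD44v6 than CD44 Low (0.037). ATF6 ran from 56.1 to 88.5 CPM over all libraries, and ERN1 from 3.30 to 10.3 CPM.

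The 11 ER chaperones and folding factors gave 2 patterns in J82. HSPA5 and DNAJB9 rose in CD44 Low against parental cells, and 7 others (HYOU1, DNAJC3, SDF2L1, PDIA4, PDIA6, CRELD2 and MANF) were higher in CD44 High than CD44 Low. These are 18.2% and 63.6% of the 11, against 5.34% and 15.7% of all genes. HSPA5 itself was not called in that comparison, at -0.46 (adjusted p = 0.17). The median of the 11 was 0.31 in CD44 High against CD44 Low (all genes -0.02), and -0.12 in CD44 Low against parental cells (all genes 0.00). HSPA5 (BiP), the main ER chaperone and the brake on the UPR sensors, stood at 536, 393 and 445 CPM in parental cells, 889, 959 and 792 CPM in CD44 Low, 652, 674 and 591 CPM in CD44 High and 670.2, 1042 and 473 CPM in CD44v6 of J82. The CD44 Low libraries were above all parental and CD44 High libraries, while CD44v6 ran from 473 CPM in replicate 3, within the parental range, to 1042 CPM in replicate 2, above CD44 Low. HSPA5 rose 1.92-fold in CD44 Low against parental cells (0.94, SE 0.21, adjusted p = 0.0243). Without parental replicate 2 or 3 or CD44 Low replicate 1 or 2 it was no longer called (adjusted p = 0.0764 to 0.125). The changes of 0.48 (adjusted p = 0.287) in CD44 High and of 0.67 (adjusted p = 0.118) in CD44v6 were not called. The first was called in the fit of only the 2 groups (adjusted p = 0.0241) and the second with DESeq2 (0.027); without CD44v6 replicate 2 the latter was 0.32, and without replicate 3 it was 0.91 (adjusted p = 0.0166). RT-112 cells held HSPA5 at 255, 249.7 and 212 CPM in parental cells, 249.6, 277 and 214 CPM in CD44 Low, 293, 302 and 255 CPM in CD44 High and 251, 236 and 273 CPM in CD44v6, and its changes against parental cells there, 0.01 in CD44 Low, 0.24 in CD44 High and 0.04 in CD44v6, were not called.

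DNAJB9 and DNAJC3 are J-domain partners of HSPA5. DNAJB9 stood at 25.8, 25 and 25.8 CPM in parental cells, 35, 36.5 and 33.3 CPM in CD44 Low, 32.4, 38 and 32.8 CPM in CD44 High and 31, 29.2 and 30.5 CPM in CD44v6 of J82. Parental cells were the lowest 3 libraries and nearly equal. It rose in CD44 Low (0.45, SE 0.09, adjusted p = 0.0136) and CD44 High (0.43, SE 0.09, adjusted p = 0.0236). The CD44 Low call was lost without parental replicate 1 or 2 or 3 or CD44 Low replicate 2 (adjusted p = 0.055 to 0.0769). The CD44 High call was lost without parental replicate 1 or 2 or 3 or CD44 High replicate 2 (adjusted p = 0.0878 to 0.126). RT-112 cells held DNAJB9 at 11.2, 10.2 and 13.9 CPM in parental cells, 16.8, 16.7 and 15.9 CPM in CD44 Low, 13.8, 10.6 and 11.3 CPM in CD44 High and 14.5, 12.5 and 12.3 CPM in CD44v6. All CD44 Low libraries of RT-112 were above the rest, but the change against parental cells was not called (0.45, SE 0.14, adjusted p = 0.115). DNAJC3, which also inhibits EIF2AK3, stood at 155, 157 and 161 CPM in parental cells, 162, 163 and 174 CPM in CD44 Low, 185, 211 and 199 CPM in CD44 High and 185, 201 and 202 CPM in CD44v6 of J82. The CD44 High and CD44v6 libraries were above all parental and CD44 Low ones. DNAJC3 was higher in CD44 High than in parental cells by 0.33, SE 0.08, adjusted p = 0.0362 and than in CD44 Low by 0.26, SE 0.08, adjusted p = 0.0388. The first call was lost in all 6 fits without 1 library (adjusted p = 0.0525 to 0.18); it was also lost with no filter (adjusted p = 0.0645). The second was lost without CD44 Low replicate 1 or 2 or CD44 High replicate 2 or 3 (adjusted p = 0.0779 to 0.148); it was also lost with no filter (adjusted p = 0.0637) and in the fit of only the 2 groups (adjusted p = 0.0883). RT-112 cells held DNAJC3 at 169.6, 162 and 199 CPM in parental cells, 282, 263 and 231 CPM in CD44 Low, 174, 161 and 199 CPM in CD44 High and 195, 179 and 164 CPM in CD44v6. Here the CD44 Low libraries were the highest of all 12. DNAJC3 rose in RT-112 CD44 Low against parental cells by 0.51, SE 0.11, adjusted p = 0.0262, the only member called in that comparison (background 3.2%, 1.33% higher and 1.87% lower), and was lower in CD44 High (-0.50, SE 0.11, adjusted p = 0.00944) and CD44v6 (-0.53, SE 0.11, adjusted p = 0.0081) than in CD44 Low. The latter calls held in all 6 fits without 1 library of each comparison. The rise against parental cells was lost without parental replicate 1 or 2 or CD44 Low replicate 1 or 2 (adjusted p = 0.0925 to 0.133).

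PDIA4 and PDIA6, which form and rearrange disulfide bonds, had similar courses in J82. PDIA4 stood at 547, 498 and 560.4 CPM in parental cells, 394, 424 and 491 CPM in CD44 Low, 621, 582 and 657 CPM in CD44 High and 526, 448 and 602 CPM in CD44v6 of J82, and PDIA6 at 221, 241 and 247 CPM in parental cells, 179, 185 and 214 CPM in CD44 Low, 262, 276 and 293 CPM in CD44 High and 252, 229 and 285 CPM in CD44v6. For both genes every CD44 Low library was below every parental and CD44 High library. In CD44 High against CD44 Low PDIA4 changed by 0.51, SE 0.11, adjusted p = 0.00889 and PDIA6 by 0.53, SE 0.10, adjusted p = 0.00339. Both calls held in all 6 fits without 1 library. Against parental cells, PDIA4 differed by -0.30 (adjusted p = 0.148) in CD44 Low and 0.21 (adjusted p = 0.397) in CD44 High, and PDIA6 by -0.30 (adjusted p = 0.109) and 0.23 (adjusted p = 0.279), so neither group differed from parental cells by a called amount. PDIA6 was also higher in CD44v6 than in CD44 Low (0.41, SE 0.10, adjusted p = 0.0213). That call was lost without CD44 Low replicate 1 or 2 or CD44v6 replicate 3 (adjusted p = 0.0621 to 0.0816); it was also lost in the fit of only the 2 groups (adjusted p = 0.126). RT-112 cells held PDIA4 at 480.3, 509 and 509 CPM in parental cells, 599, 563 and 462 CPM in CD44 Low, 477, 573 and 497 CPM in CD44 High and 537, 539.7 and 529 CPM in CD44v6. PDIA6 in RT-112 stood at 302, 336 and 359 CPM in parental cells, 417, 361 and 315 CPM in CD44 Low, 355, 376 and 341 CPM in CD44 High and 364, 361 and 380.4 CPM in CD44v6, and for both genes CD44 Low gave both the highest and a low library, so that the groups overlapped.

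CRELD2 and MANF are small ER proteins that ER stress induces and cells can secrete. CRELD2 stood at 30.2, 27.8 and 31.1 CPM in parental cells, 19.9, 24 and 27.9 CPM in CD44 Low, 34.3, 33.9 and 34.5 CPM in CD44 High and 34.9, 28.7 and 33.3 CPM in CD44v6 of J82. Replicate 1 of CD44 Low was the lowest, and CD44 High varied least. It changed in CD44 High against CD44 Low by 0.52, SE 0.12, adjusted p = 0.0124, and in CD44v6 against CD44 Low by 0.44, SE 0.12, adjusted p = 0.0417. The first call was kept in all 6 fits without 1 library. The second was lost without CD44 Low replicate 1 or 2 or CD44v6 replicate 1 or 3 (adjusted p = 0.0857 to 0.126); it was also lost with no filter (adjusted p = 0.0691) and in the fit of only the 2 groups (adjusted p = 0.196). MANF stood at 82.2, 93 and 85.8 CPM in parental cells, 80.3, 72 and 75.7 CPM in CD44 Low, 105, 104 and 104 CPM in CD44 High and 103, 77.9 and 105 CPM in CD44v6 of J82, with CD44 Low below parental cells, CD44 High above them and replicate 2 of CD44v6 at the level of CD44 Low. Its change in CD44 High against CD44 Low was 0.46, SE 0.11, adjusted p = 0.0132. Leaving out CD44 Low replicate 2 ended the call (adjusted p = 0.0514). RT-112 cells held CRELD2 at 54.1, 46.4 and 52.9 CPM in parental cells, 55.8, 54.1 and 44.2 CPM in CD44 Low, 46.6, 61.5 and 42.3 CPM in CD44 High and 55.7, 54.1 and 48.7 CPM in CD44v6, and MANF at 40.8, 53.1 and 52.4 CPM in parental cells, 46.8, 38.1 and 41.2 CPM in CD44 Low, 49.3, 50.2 and 42.2 CPM in CD44 High and 49.3, 46.5 and 45.5 CPM in CD44v6. Neither was called in RT-112. SDF2L1, which works with HSPA5-bound clients, stood at 18.4, 13.8 and 16.6 CPM in parental cells, 15.1, 15.2 and 14.7 CPM in CD44 Low, 22.3, 21.4 and 19.8 CPM in CD44 High and 16.1, 19.3 and 20.7 CPM in CD44v6 of J82; CD44 High was above CD44 Low by 0.50, SE 0.13, adjusted p = 0.0194. Without CD44 Low replicate 1 or 3 or CD44 High replicate 1 or 2 it was no longer called (adjusted p = 0.0503 to 0.072). RT-112 cells held SDF2L1 at 18.1, 18.7 and 19.1 CPM in parental cells, 22.3, 17.2 and 15 CPM in CD44 Low, 21.5, 23.3 and 14.7 CPM in CD44 High and 21.3, 15.3 and 17.8 CPM in CD44v6, with replicate 3 lowest in CD44 Low and CD44 High alike.

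HYOU1, the nucleotide exchange factor that releases ADP from HSPA5, was the chaperone called in both lines in the same direction. J82 held HYOU1 at 180.3, 193 and 208 CPM in parental cells, 189.6, 175 and 192 CPM in CD44 Low, 216, 226 and 243 CPM in CD44 High and 212, 232 and 235 CPM in CD44v6, and CD44 High and CD44v6 were above the other groups. The change against CD44 Low was 0.31, SE 0.08, adjusted p = 0.0279 in CD44 High and 0.29, SE 0.08, adjusted p = 0.047 in CD44v6. RT-112 cells held HYOU1 at 261, 296 and 291 CPM in parental cells, 269, 257 and 256 CPM in CD44 Low, 286, 332 and 293 CPM in CD44 High and 312, 288 and 329 CPM in CD44v6. Against CD44 Low it was higher in CD44 High by 0.25, SE 0.08, adjusted p = 0.0424, and in CD44v6 by 0.24, SE 0.08, adjusted p = 0.0499. The J82 CD44 High call was lost without CD44 Low replicate 1 or 2 or CD44 High replicate 2 or 3 (adjusted p = 0.0561 to 0.0886); it was also lost in the fit of only the 2 groups (adjusted p = 0.0516). The J82 CD44v6 call was lost in all 6 fits without 1 library (adjusted p = 0.0501 to 0.151); it was also lost with no filter (adjusted p = 0.0725) and in the fit of only the 2 groups (adjusted p = 0.183). The RT-112 CD44 High call was lost without CD44 Low replicate 1 or 2 or 3 or CD44 High replicate 1 or 2 (adjusted p = 0.0731 to 0.132); it was also lost with RLE size factors (adjusted p = 0.0516), with no filter (adjusted p = 0.124), under a replicate block (adjusted p = 0.0711) and in the fit of only the 2 groups (adjusted p = 0.126). The RT-112 CD44v6 call was lost without CD44 Low replicate 1 or 2 or 3 or CD44v6 replicate 1 or 3 (adjusted p = 0.0922 to 0.168); it was also lost with no filter (adjusted p = 0.101), under a replicate block (adjusted p = 0.0788) and in the fit of only the 2 groups (adjusted p = 0.0624). CALR (1718 to 2551 CPM) and HSP90B1 (2004 to 2829 CPM), the most abundant members, were called in none of the comparisons within a line, and both carry the ER stress element shown for HSPA5. HERPUD1, an ER membrane protein that recruits the degradation machinery, rose in J82 CD44 Low from 42.8 ± 1.17 CPM to 64.3 ± 8.57 CPM (SD, n = 3; 0.58, SE 0.14, adjusted p = 0.0349). Without parental replicate 1 or 2 or 3 or CD44 Low replicate 2 or 3 it was no longer called (adjusted p = 0.069 to 0.133); it was also lost with no filter (adjusted p = 0.0538). SEL1L, EDEM1 and SYVN1, which build or feed the HRD1 ubiquitin ligase complex, were called in none. SYVN1 reached 22.7 CPM in J82 CD44v6 replicate 2 and 16.5 CPM in CD44 Low replicate 1, against 5.15 to 11.1 CPM in the other J82 libraries.

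**Figure D3:**
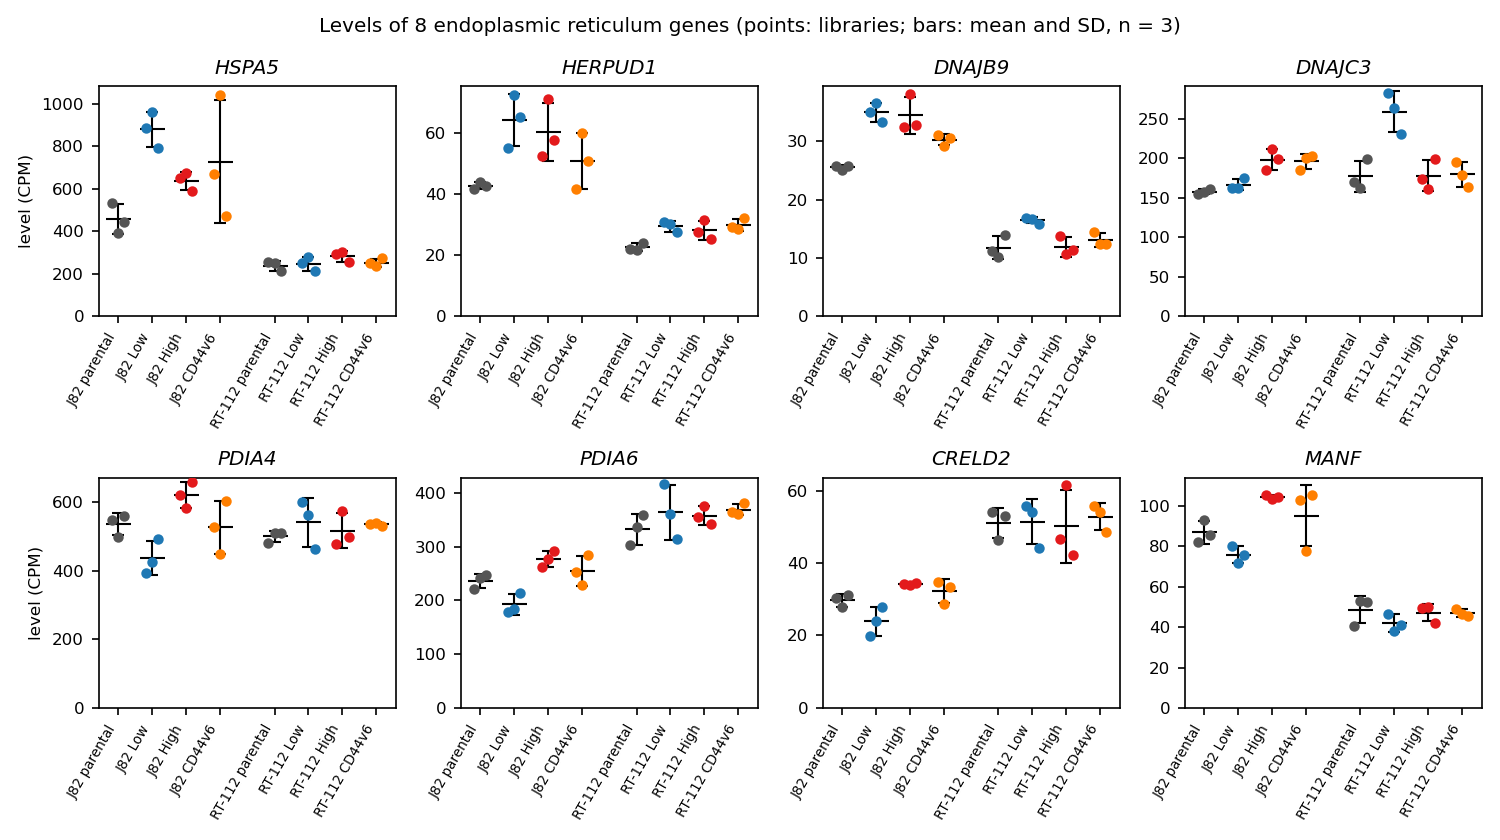
CPM of 8 ER genes in every library (points) with mean and SD (bars, n = 3) in the 4 groups of J82 (left) and RT-112 (right), on linear axes that start at 0. Within J82 the mean is lowest in parental cells for HSPA5, HERPUD1 and DNAJB9 and in CD44 Low for PDIA4, PDIA6, CRELD2 and MANF, and DNAJC3 is highest in RT-112 CD44 Low.

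Other differences ran alongside those of the members. The summed level of 5 mesenchymal markers (VIM, CDH2, ZEB1, FN1 and SPARC, all 5 detected in J82) was 876 to 1118 CPM in CD44 Low and 1206 to 1388 CPM in CD44 High. That of 15 urothelial and epithelial markers, of which KRT5, UPK2 and UPK3A were at 0, was 6474 to 7882 CPM in CD44 Low and 8763 to 10648 CPM in CD44 High, against 8046 to 9589 CPM in parental cells. In parental J82 the mesenchymal sum was 994 to 1116 CPM, overlapping CD44 Low. In RT-112 the mesenchymal sum was 307 to 372 CPM in parental cells and 206 to 244 CPM in CD44 Low. It was 418 to 768 CPM in CD44 High and 525 to 899 CPM in CD44v6. Nearly all of the RT-112 sum was FN1 (197 to 892 CPM). VIM, CDH2 and ZEB1 were each at 8.04 CPM or less in RT-112 and SPARC was at 0, so the sum follows 1 gene there. The urothelial and epithelial sum ran the other way there, from 12496 to 13318 CPM in parental cells, 13482 to 15654 CPM in CD44 Low and 10931 to 12273 CPM in CD44 High. The part of these shifts in the member levels of either line was not tested. Summed leukocyte markers, nearly all of it CD68 while PTPRC and CD3E were at or near 0, ran from 152 to 175 CPM in parental J82, from 78.6 to 123 CPM in CD44 Low and from 141 to 217 CPM in CD44 High.

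For RT-112, the comparison of CD44 High with CD44 Low gave 4 higher members (ATF5, SLC7A5, WARS1 and HYOU1) and 1 lower (DNAJC3), where 16% of all 15645 genes were called (9.01% higher, 7.02% lower), and CD44v6 against CD44 Low gave 3 higher (MTHFD2, WARS1 and HYOU1) and 1 lower (DNAJC3), with 16% of all genes as well (7.97% higher, 8.03% lower). The shares of the 38 members tested, 13.2% and 10.5%, were thus not above the background, and the member medians were 0.08 and 0.05 against 0.02 and 0.00 for all genes. The first count fell to 1 without CD44 Low replicate 1 and to 2 without CD44 Low replicate 2 or CD44 High replicate 1 or 2. The second fell to 1 without CD44 Low replicate 1 or 2 or CD44v6 replicate 3, and to 2 without CD44v6 replicate 1. The single call of CD44 Low against parental cells became none without parental replicate 1 or 2 or CD44 Low replicate 1 or 2, and 3 without CD44 Low replicate 3. CD44 High against parental cells called no member with edgeR (5 at an unadjusted p under 0.05, none with DESeq2; background 0.511%), and CD44v6 against parental cells none either (6 unadjusted, 1 with DESeq2; background 0.614%). CD44v6 against CD44 High called no gene with edgeR (no member at an unadjusted p under 0.05 and none with DESeq2).

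The difference between the lines was tested directly for 3 changes. For CD44 High against CD44 Low, 5 of 39 members differed between J82 and RT-112, 3 higher in J82 and 2 lower, where 10.7% of all genes did (6.24% and 4.42%). DNAJC3 rose in J82 (0.26) and fell in RT-112 (-0.50), a difference of 0.79, SE 0.14, adjusted p = 0.000752. SLC7A5 did the reverse, -0.69 in J82 and 0.41 in RT-112, a difference of -1.06, SE 0.25, adjusted p = 0.00865. For PDIA4 (0.58, SE 0.15, adjusted p = 0.0185) and PDIA6 (0.55, SE 0.14, adjusted p = 0.016) the change in RT-112 was -0.04 and 0.01. VLDLR differed by -1.16, SE 0.33, adjusted p = 0.0273, from low levels in RT-112. Those of DNAJC3, SLC7A5 and PDIA6 held in all 12 fits without 1 library. PDIA4 lost the call without RT-112 CD44 Low replicate 1 or CD44 High replicate 1, and VLDLR in 8 of the 12, with adjusted p-values up to 0.0714. The count itself was 3 without RT-112 CD44 Low replicate 1 and 8 without J82 CD44 Low replicate 3. For the other chaperones that rose in J82, the difference was 0.55 (adjusted p = 0.0665) for CRELD2, 0.38 (adjusted p = 0.352) for SDF2L1, 0.29 (adjusted p = 0.289) for MANF and 0.08 (adjusted p = 0.769) for HYOU1, none called. For CD44 Low against parental cells no member differed between the lines with edgeR (10 at an unadjusted p under 0.05, 2 with DESeq2; background 1.06%). HSPA5 came nearest, at 0.89, SE 0.26, adjusted p = 0.105, so by this test its rise in J82 was not shown to differ from the change in RT-112. DESeq2 gave it an adjusted p of 0.0246. For CD44v6 against parental cells none was called (5 unadjusted, 1 with DESeq2; background 0.138%).

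**Figure D4:**
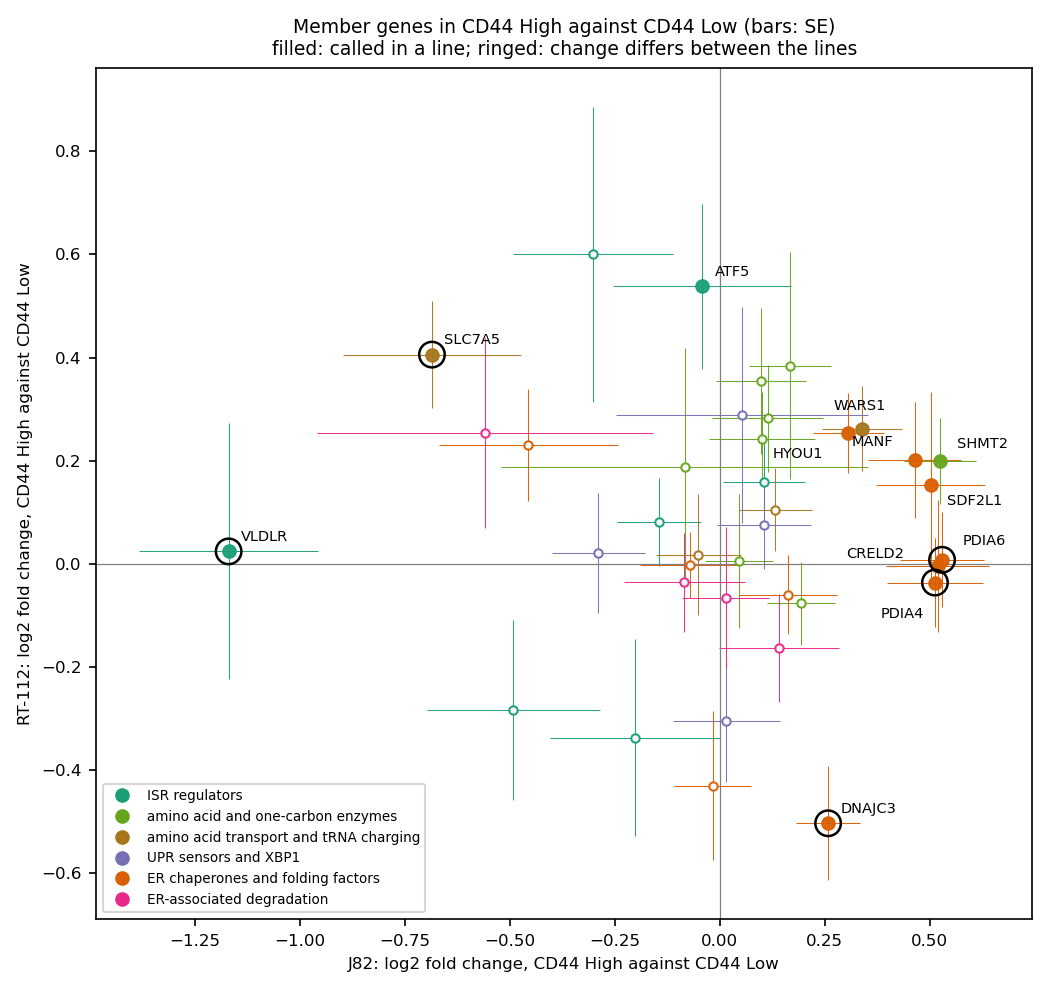
Log2 fold change of 38 members in CD44 High against CD44 Low in J82 (horizontal) and RT-112 (vertical), with SE (bars, n = 3 per group; filled points are called in either line; rings mark the 5 whose change differs between the lines; colours mark roles). PDIA4 and PDIA6 lie at about 0.5 in J82 and near 0 in RT-112, DNAJC3 lies at 0.26 and -0.50, and SLC7A5 at -0.69 and 0.41.

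Other genes of the same pathways were read from 4 further lists holding 70 genes, of which 68 were tested in J82 and 66 in RT-112. A separate list of 12 heat shock genes was read as well. In J82 CD44 Low against parental cells 7 rose and 1 fell of 68, 11.8% against 5.34% of all genes. Of these, 5 and 1 were among 13 other eIF2 kinases, phosphatase subunits and ISR targets (46.2%), whose median was 0.46. ATF3, a stress-induced repressor, rose by 2.17 (SE 0.45, adjusted p = 0.0147), from 24.5 ± 0.749 to 111 ± 46.2 CPM (SD, n = 3). CTH, which makes cysteine from cystathionine, rose by 0.91 (adjusted p = 0.0141), and STC2, a secreted glycoprotein, fell by 0.45 on the log2 scale (adjusted p = 0.0325). PPP1R15A (GADD34), the subunit that directs a phosphatase to eIF2 and ends the response, was higher than in parental cells in J82 CD44 High (0.53) and CD44v6 (0.72) and in RT-112 CD44 Low (0.70), CD44 High (0.92) and CD44v6 (0.85), each with an adjusted p of 0.00649 to 0.0438. PPP1R15B, its constitutive counterpart, rose in RT-112 CD44 Low by 0.67 (adjusted p = 0.0214), and the C/EBP factor CEBPB in J82 CD44 High by 0.50 and CD44v6 by 0.61. Within a line these comparisons share their parental libraries. Only the 2 called genes with the largest change in each direction were named per comparison. PPP1R15A and CEBPB can therefore be called in J82 CD44 Low without being named for it. Against parental cells 3 of the 68 rose in J82 CD44 High (4.41%, all genes 2.94%) and 4 in CD44v6 (5.88%, all genes 2.6%). In RT-112 3 of 66 rose in CD44 Low (4.55%, all genes 3.2%), 1 in CD44 High (1.52%, all genes 0.511%) and 1 in CD44v6 (1.52%, all genes 0.614%); none fell in these comparisons.

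In J82 CD44 High against CD44 Low 8 of the 68 further genes were higher and 6 lower, 20.6% against 15.7% of all genes. Among 27 other ER folding, UPR and degradation genes 6 were higher and 1 lower (25.9%, median 0.17). Of 13 other amino acid enzymes and transporters 1 was higher and 2 were lower (23.1%, median -0.13). STC2 was higher by 0.85 (adjusted p = 0.000217), and CTH and the cystine importer SLC7A11 were lower, at -0.75 and -0.61 (adjusted p = 0.0159 and 0.0267). Of 15 other cytosolic tRNA synthetases none was called, with a median of 0.12. In CD44v6 against CD44 Low 3 of 68 were higher and 2 lower (7.35%, all genes 9.58%), with STC2 at 0.96, the alanine transaminase GPT2 at 0.49 and EDEM3 at -0.39. RT-112 CD44 High against CD44 Low gave 6 higher and 5 lower of 66 (16.7%, all genes 16%), with the amino acid transporters SLC1A4 (0.59) and SLC7A1 (0.57) at one end and GDF15 (-1.62), a secreted stress factor, and JDP2 (-0.98), a bZIP repressor, at the other. RT-112 CD44v6 against CD44 Low gave 3 higher and 7 lower (15.2%, all genes 16%), with SLC1A4 at 0.60, SLC7A1 at 0.49, GDF15 at -1.30 and SLC7A11 at -1.08. Of the 12 cytosolic heat shock genes, which respond to unfolded protein outside the ER, 5 were higher in RT-112 CD44 High than in CD44 Low (41.7%, median 0.35) and 3 in CD44v6 (25%, median 0.25), where 16% of all genes were called in each. In J82 CD44 High against CD44 Low 1 was higher (8.33% against 15.7%, median 0.04). Between the parental lines 35 of 68 further genes were higher in J82 and 14 lower, 72.1% against 62% of all genes (31% in each direction).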

How the data were processed

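RNA sequencing of total RNA from 24 libraries was deposited by the authors as 1 table of raw read counts per gene for 35993 genes, per the file headers. HISAT2, StringTie and genome build GRCh37 are named in the submitters' processing notes. The counting program, the annotation and the use of strand are not given in the sources used here. Library totals of 16752825 to 24419670 counts limit precision for members with few counts, such as CHAC1.

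Counts were tested with edgeR 4.0.16 in R 4.3.3 (TMM scaling, filterByExpr by group, quasi-likelihood F test, Benjamini-Hochberg adjustment over all genes, threshold 0.05). Comparisons within a line used its 12 libraries (15951 genes in J82, 15645 in RT-112). The comparison of parental lines and the differences between lines used all 24 (17438 genes). CPM are counts normalised to the TMM-scaled library size. SE is the absolute log2 fold change divided by the square root of F. The scripts were tested on simulated data. Alternatives were size factors by median of ratios (RLE), no filter, DESeq2 1.42.0, a replicate block, fits of only the 2 groups compared, and leaving out each library. Labels call the samples biological replicates without naming separate cultures, so p-values measure the spread between these samples, which may be technical.

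Members and lists were chosen with earlier results of these data known. Full values were given for ATF4, DDIT3, XBP1, HSPA5 and the 14 other members called in the most comparisons within a line, and ranges for the others. The further lists held other eIF2 kinases, phosphatase subunits and ISR targets, other amino acid enzymes and transporters, and other cytosolic tRNA synthetases. They also held other ER folding, UPR and degradation genes, and heat shock genes. Up to 2 called genes of these lists in each direction were named per comparison at an average log2 CPM of at least 3. Replicate numbers were checked as pairs by correlating deviations from group means. In 1 of 13 comparisons, J82 CD44v6 against CD44 High, every pair exceeded 0.1 (0.11, 0.11 and 0.25). That pairing comes from the data, not the labels. Figures were drawn with matplotlib 3.10.9. Single values of some genes of the pathway and marker lists are not reported here.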

Additional observations from a re-analysis of the deposited data

Results flagged for a closer look

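The change of 5 members in CD44 High against CD44 Low differed between the lines by edgeR's quasi-likelihood test of the difference itself, each with an adjusted p under 0.05 over all genes. They are 12.8% of the 39 members, close to the 10.7% of all genes called in this test. J82 minus RT-112 was 0.79 for DNAJC3, 0.58 for PDIA4 and 0.55 for PDIA6, and -1.16 for VLDLR and -1.06 for SLC7A5. The calls of VLDLR and PDIA4 were lost in some fits without 1 library, as given above. For DNAJC3 and SLC7A5 the change had opposite signs in the lines and was called in each. Of 6 fits without 1 library, the J82 call of SLC7A5 was lost in all 6 and that of DNAJC3 in 4. In RT-112 the call of SLC7A5 was lost in 3 of 6, and that of DNAJC3 was kept in all 6. VLDLR lay at 1.80 to 3.78 CPM in RT-112, where its change was not called.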

How the results depend on the processing

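None of the 96 gene results refitted, which are the called members, CD44 and some named uncalled changes, reversed under any alternative; the other changes printed were not refitted. No scaling moved the median change of all genes by more than 0.041. Of 96 gene results, 94 kept their side of the threshold with RLE size factors, 80 with no filter, 90 with DESeq2 and 89 with the replicate block, and 70 of 87 did so in fits of only the 2 groups compared. The counts of called members moved more. J82 CD44 Low against parental cells gave 7, and 4 with no filter. J82 CD44 High against parental cells gave 2, and 1 with no filter, 6 with DESeq2, 4 with the replicate block and 10 in the fit of 2 groups. J82 CD44v6 against parental cells gave 1, and 2 with RLE size factors, 4 with DESeq2, 3 with the replicate block and 0 in the fit of 2 groups. J82 CD44v6 against CD44 Low gave 4, and 1 with no filter, 7 with DESeq2 and 0 in the fit of 2 groups. RT-112 CD44 Low against parental cells gave 1, and 4 with DESeq2 and 2 in the fit of 2 groups. RT-112 CD44v6 against parental cells gave 0, and 1 with DESeq2. RT-112 CD44 High against CD44 Low gave 5, and 3 with RLE size factors, 2 with no filter or the replicate block and 1 in the fit of 2 groups. RT-112 CD44v6 against CD44 Low gave 4, and 1 with no filter and 2 with the replicate block. The differences between lines gave 0 for CD44 Low against parental cells (2 with DESeq2), 5 for CD44 High against CD44 Low (9) and 0 for CD44v6 against parental cells (1). The cause of these moves was not tested.

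Leaving out 1 library gave 1 to 5 called members in J82 CD44 Low against parental cells, 0 to 1 in CD44 High and 0 to 3 in CD44v6. For J82 the range was 6 to 9 with CD44 High against CD44 Low, 0 to 9 with CD44v6 against it. In RT-112 it gave 0 to 3 in CD44 Low against parental cells, 1 to 5 in CD44 High against CD44 Low and 1 to 5 in CD44v6 against CD44 Low. Over all genes these 3 RT-112 comparisons gave 142 to 798 (500 in the full fit), 1230 to 3091 (2507) and 1004 to 2239 (2504). CD44v6 against CD44 High stayed at 0 in both lines, and so did CD44 High and CD44v6 against parental cells in RT-112. The parental lines gave 23 to 24. The differences between lines gave 0, 3 to 8 and 0 to 1, in the order above. A fit that leaves 2 libraries in a group has fewer samples.

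The replicate block is not supported by the labels as a pairing. In J82 CD44v6 against CD44 High, where the data paired the numbers, it left 0 members called. Elsewhere the block ended 6 calls of the 96 and made 1. In CD44 High against CD44 Low it ended those of SLC7A5 in J82 (adjusted p = 0.0566) and of WARS1 (0.0744), HYOU1 (0.0711) and ATF5 (0.0558) in RT-112, and made that of DDIT3 in J82 (0.0321). In RT-112 CD44v6 against CD44 Low it ended those of HYOU1 (0.0788) and MTHFD2 (0.0543).

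Counts over all genes changed by more than 1.5 times under several alternatives. DESeq2 and the fit of 2 groups gave 1488 and 1501 for J82 CD44 Low against parental cells (852), 910 and 1350 for CD44 High (469), and 1061 and 148 for CD44v6 (415, and 253 with no filter). In RT-112 they gave 985 and 1126 for CD44 Low (500, and 303 with the block), 292 and 43 for CD44 High (80), and 587 and 953 for CD44v6 (96, with 60 for no filter and 58 for the block). The fit of 2 groups gave 636 for J82 CD44v6 against CD44 Low (1528) and 1171 for RT-112 CD44 High against CD44 Low (2507). For CD44v6 against CD44 High (0) DESeq2 gave 74 in J82 and 2 in RT-112, and the fit of 2 groups gave 1 in J82. For the differences between lines DESeq2 gave 536 in CD44 Low (185) and 463 in CD44v6 (24).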

Other observations

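Replicates of the parental lines lay closest together over the 39 members, although in J82 the range overlapped that of the CD44 groups. The root mean square deviation from the group mean, on edgeR's log2 CPM with a prior count of 2, was 0.103 to 0.156 in parental J82. In parental RT-112 it was 0.107 to 0.117. It was 0.146 to 0.313 in the CD44 groups of J82 and 0.17 to 0.377 in those of RT-112. Over all genes it was 0.286 to 0.297 in parental J82 and 0.396 to 0.502 in its CD44 groups. For RT-112 the all-gene values were 0.305 to 0.328 in parental cells and 0.325 to 0.401 in the CD44 groups. The smaller spread of parental J82 was thus not particular to the members. The 0.377 was that of RT-112 CD44 Low replicate 2. There CHAC1, a gene near the floor, stood at 0.946 CPM against 0 in replicates 1 and 3, which this scale weighs heavily. The highest value in J82 was that of replicate 2 of CD44v6. In that library HSPA5 (1042 CPM), SESN2 (20.7 CPM), SYVN1 (22.7 CPM), EDEM1 (50 CPM) and EIF2AK3 (69.6 CPM) were each the highest of the 12 J82 libraries. HSP90B1 (2004 CPM), CALR (1718 CPM), ATF6 (56.1 CPM), MTHFD2 (47.6 CPM) and CEBPG (48.5 CPM) were each the lowest. So 1 library held the extreme values of an ER chaperone and of a degradation ligase in one direction and of more abundant chaperones in the other. Every library can hold some extremes, and those of the other J82 libraries were not counted. Whether this library differs in its cells or in its RNA was not tested.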
